A study of Mus musculus with 32 samples.

Results

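The transcripts described here are those of 10 genes reported as direct targets of beta-catenin: T, Sp5, Axin2, Cdx1, Lef1, Tcf7, Nkd1, Rnf43, Znrf3 and Notum. They were chosen by name, with earlier results of these data known, and read from the rows of these symbols among the 24890 of the count table. All 10 had a row and passed the filter on low counts that left 15036 genes. In canonical Wnt signalling, a complex of Axin, APC, casein kinase 1 and GSK3 marks beta-catenin for destruction, and a Wnt ligand bound to Frizzled and LRP receptors stops that complex. The beta-catenin that then builds up enters the nucleus and binds TCF/LEF factors on DNA, where it turns on target genes, many of which encode inhibitors of the same pathway. Mouse embryonic stem cells are often kept with a GSK3 inhibitor, which stabilises beta-catenin without a ligand and helps to hold them in the naive state.

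The series sequenced polyadenylated RNA of E14 mouse embryonic stem cells, a wild-type line, in 2 arms. NrESC cells were grown with T0901317 at 10 µM, a compound that activates LXR, the nuclear receptors for oxysterols, and ESC cells, labelled as control, without it. Both arms were kept on gelatin in serum medium with LIF and the same inhibitors, 3 µM CHIR99021, which blocks GSK3, and 1 µM PD0325901, which blocks MEK. Every library thus comes from cells labelled as grown with a GSK3 inhibitor. No library without it is at hand, and the activity of the beta-catenin pathway itself was not measured. Each arm was sampled at passages 0, 2, 4, 6, 8, 10, 12 and 14 with 2 libraries a passage, 32 libraries in 16 groups of arm and passage. NrESC passage 0 is labelled as treated, with no word on for how long, and the labels name no batch. Whether the 2 libraries of one arm and passage were separate cultures is not labelled, so p-values measure only the spread between these samples, which may be technical.

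Promoter windows from 250 bases before to 50 bases after a start site were taken from RefSeq (build GRCm38.p6) for 7 of the 10 genes, and Cdx1, Znrf3 and Notum had none in the table. Windows are shown for the genes with the largest changes over passages, T, Sp5 and Lef1, and for Axin2, whose values followed theirs most closely. Letters in capitals match the core of the TCF/LEF recognition sequence, CTTTGA or its reverse complement TCAAAG, with the longer form CTTTGAT, which reads as ATCAAAG on the other strand, where present. The T window is chr17:8434173-8434472, the Sp5 window chr2:70474673-70474972, the Lef1 window, one of 4 for this gene, chr3:131156044-131156343, and the Axin2 window chr11:108920099-108920398, all on the plus strand and written 5′ to 3′. The Lef1 window shown is the only one of the 4 with a match and lies farthest downstream. The others begin at bases 131110047, 131110073 and 131112541 of chromosome 3.

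T: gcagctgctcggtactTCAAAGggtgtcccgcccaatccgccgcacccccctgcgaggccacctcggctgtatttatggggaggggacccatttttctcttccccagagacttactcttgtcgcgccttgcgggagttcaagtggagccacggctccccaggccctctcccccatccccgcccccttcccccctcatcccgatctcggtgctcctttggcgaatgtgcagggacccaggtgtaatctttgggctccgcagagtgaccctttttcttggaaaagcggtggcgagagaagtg

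Sp5: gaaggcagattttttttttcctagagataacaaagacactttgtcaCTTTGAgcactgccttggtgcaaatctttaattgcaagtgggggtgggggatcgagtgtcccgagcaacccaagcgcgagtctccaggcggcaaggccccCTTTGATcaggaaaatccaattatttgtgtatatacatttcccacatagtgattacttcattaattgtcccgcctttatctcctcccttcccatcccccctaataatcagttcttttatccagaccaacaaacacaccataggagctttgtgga

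Lef1: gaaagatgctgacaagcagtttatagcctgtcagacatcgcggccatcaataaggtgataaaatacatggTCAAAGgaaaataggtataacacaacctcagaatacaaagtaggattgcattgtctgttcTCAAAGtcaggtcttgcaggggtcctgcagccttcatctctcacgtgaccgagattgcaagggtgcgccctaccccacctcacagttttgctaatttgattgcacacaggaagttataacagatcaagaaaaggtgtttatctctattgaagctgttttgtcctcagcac

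Axin2: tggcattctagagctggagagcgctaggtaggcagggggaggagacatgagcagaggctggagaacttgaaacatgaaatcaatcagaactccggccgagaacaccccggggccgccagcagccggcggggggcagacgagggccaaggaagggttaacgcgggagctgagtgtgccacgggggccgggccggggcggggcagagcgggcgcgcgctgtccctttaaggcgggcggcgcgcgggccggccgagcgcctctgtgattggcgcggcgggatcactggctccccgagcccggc

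The Sp5 window held 2 matches of CTTTGA, 204 and 104 bases before the start site, the nearer of which was also the only match of CTTTGAT among the members' windows. The T window held 1 match, 234 bases before the start site, and the Lef1 window 2 matches, 180 and 120 bases before it. No match was found in the windows of Axin2, Tcf7, Nkd1 and Rnf43 or in the other 3 windows of Lef1. Of all 32851 windows in the table, 16% held CTTTGA on either strand and 3.73% held CTTTGAT. A direct repeat bound by LXR with its partner RXR, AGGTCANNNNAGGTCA, was in 0.0152% of all windows and in none of the members'. A match of letters describes the sequence and is not shown here to be bound.

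NrESC libraries held 25062538 to 50463483 counts and ESC libraries 24989651 to 45818061. The targets of LXR that served to check the arms, the sterol exporters Abca1 and Abcg1, followed the labels: Abca1 averaged 68.0 ± 6.90 TPM in NrESC and 8.13 ± 1.67 TPM in ESC (SD, n = 8 passages), and was already at 54.5 TPM in NrESC at passage 0, against 5.53 TPM in ESC. The stem cell label fitted the markers, since the summed level of 10 embryonic stem cell markers ran from 10559 to 12798 TPM over the NrESC passages and from 10017 to 11254 TPM over the ESC passages. Dppa5a made up the largest part of that sum, with means of 6461 TPM in NrESC and 4792 TPM in ESC. On the first principal component the passage 8 libraries of NrESC lay beyond the rest, at 53.4 and 53.0, where the next highest library had 35.6. Comparisons of the arms over passages use the 8 passages as the unit, with the libraries of a group summed, and comparisons at one passage use the spread between libraries over all 16 groups. Whether the passages of an arm were successive samples of the same culture is not labelled. If so, they are repeated samples and not independent replicates, and p-values over passages do not allow for that dependence. Effects of the treatment and differences between cultures could then not be told apart. All adjusted p-values come from edgeR's quasi-likelihood test with Benjamini-Hochberg adjustment over the 15036 genes, with a threshold of 0.05. Log2 fold changes are NrESC over ESC. In the mean of 8 passages, 3 of the 10 stem cell markers were called higher in NrESC and 5 lower (all genes 28.3% and 27.2%). Dppa5a (0.45, SE 0.0477) and Tfcp2l1 (0.15, SE 0.0333) were among the higher and Nanog (-0.45, SE 0.0622) among the lower.

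Levels between genes are compared in TPM, counts corrected for transcript length and scaled to a common total. The order over the 8 passages was nearly the same in the arms. Cdx1 was highest, at 107 ± 46.2 TPM in NrESC and 101 ± 49.7 TPM in ESC (SD, n = 8 passage means in each arm), then Tcf7 at 36.5 ± 5.01 TPM in NrESC and 32.6 ± 5.74 TPM in ESC, and Axin2 at 19.9 ± 9.07 TPM in NrESC and 21.1 ± 7.79 TPM in ESC. Notum, Sp5 and Znrf3 followed, with 9.32 ± 1.68, 8.59 ± 10.6 and 5.65 ± 0.211 TPM in NrESC and 15.0 ± 2.23, 9.63 ± 9.26 and 6.70 ± 0.471 TPM in ESC. Nkd1, T and Rnf43 lay near 2 TPM, with 2.43 ± 0.772, 2.28 ± 3.35 and 1.89 ± 0.662 TPM in NrESC and 1.80 ± 0.494, 2.14 ± 2.78 and 1.38 ± 0.467 TPM in ESC. Lef1 was lowest, at 0.238 ± 0.241 TPM in NrESC and 0.501 ± 0.415 TPM in ESC. In both arms Notum and Sp5, Sp5 and Znrf3, and the neighbours among Nkd1, T and Rnf43 differed by less than the larger of their SDs, as did Axin2 and Notum in ESC. The SDs of T and Sp5, which were far higher at passages 0 and 2 than later, were near or above their means.

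**Figure D1:**
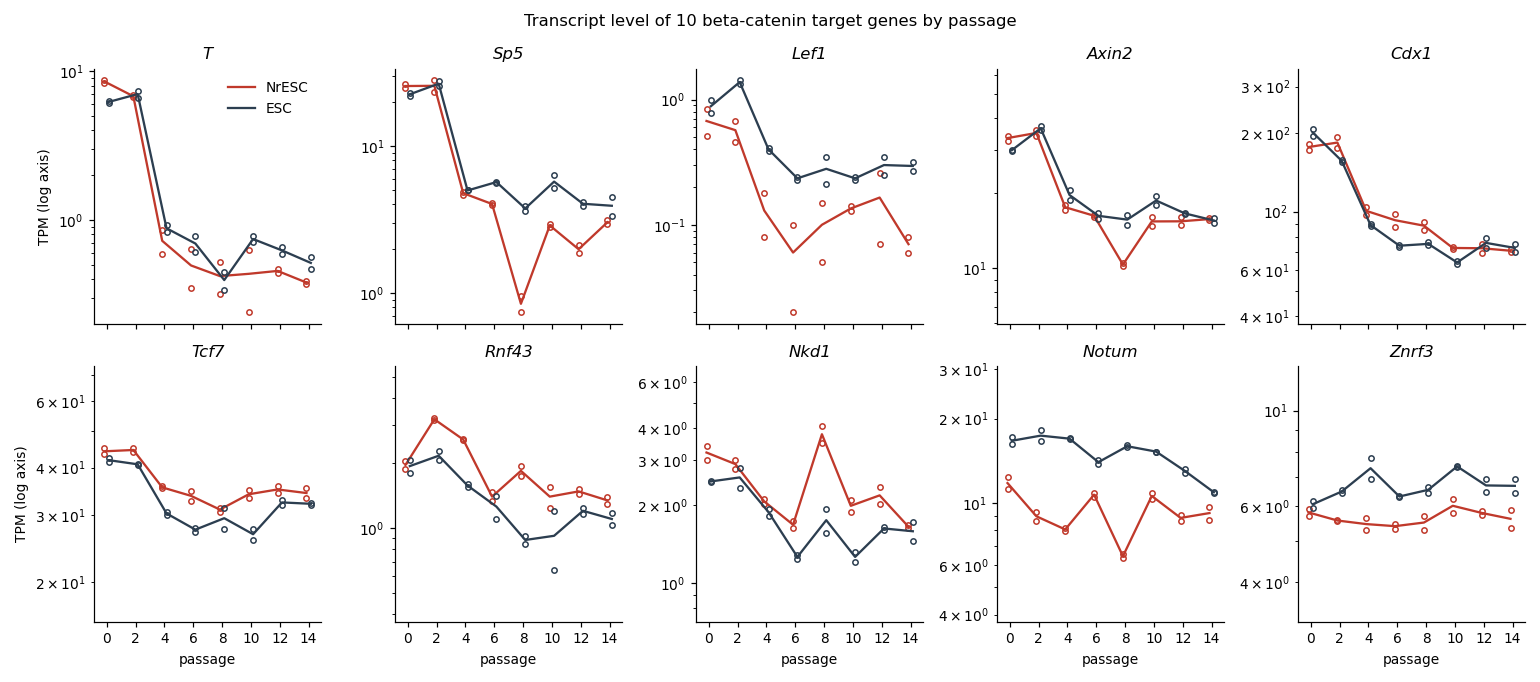
Transcript level in TPM (log axes, each panel with its own range) of the 10 genes against passage, with 1 circle per library and a line through the mean of each arm and passage, NrESC in red and ESC in dark blue. T, Sp5, Lef1, Axin2 and Cdx1 drop between passages 2 and 4 in both arms, while Notum and Znrf3 stay lower in NrESC than in ESC throughout.

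Of the 3 transcription factors that act in the embryo's posterior, T (Brachyury), which specifies primitive streak and mesoderm, changed most over passages. In NrESC, T had 8.70 and 8.34 TPM at passage 0 and 6.89 and 6.68 TPM at passage 2, and then 0.24 to 0.86 TPM (median 0.455) in the 12 libraries of passages 4 to 14. In ESC it had 6.30 and 6.13 TPM at passage 0 and 6.63 and 7.40 TPM at passage 2, and then 0.34 to 0.93 TPM (median 0.635). Every library of passages 4 to 14 was thus below every library of passages 0 and 2 of its arm, by a log2 change of -4.02 in NrESC and -3.43 in ESC between the mean levels. Later T levels rest on 8 to 29 counts per NrESC library and 11 to 40 per ESC library. In bulk RNA, fewer cells with the transcript and less transcript per cell cannot be told apart.

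Between the arms T did not pass the test in the mean of 8 passages, at -0.16 on the log2 scale (SE 0.133, adjusted p = 0.32), and its sign turned when the second library of each group was left out (0.04). It passed without passages 0, 2 and 8, an alternative chosen after seeing the data (-0.46, adjusted p = 0.0353), and with single libraries in place of passages as the unit (-0.22, adjusted p = 0.0487). At passage 0 both NrESC libraries lay above both ESC libraries, and T was higher in NrESC by 0.45 (SE 0.125, adjusted p = 0.00464), which did not pass in DESeq2 (adjusted p = 0.0517). At passage 10 T was lower in NrESC, with a value of -0.72 (SE 0.314, adjusted p = 0.0474), but the NrESC libraries of that passage had 0.63 and 0.24 TPM, against 0.71 and 0.78 TPM in ESC. Without NrESC library 1 the value was -1.62. The call at passage 10 was lost without NrESC library 2 (-0.25, adjusted p = 0.571), in DESeq2 (adjusted p = 0.0685), without ESC library 1 (adjusted p = 0.0908) or without ESC library 2 (adjusted p = 0.146).

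Sp5, a zinc finger factor of the Sp family that the pathway induces and that damps its targets, showed the same early drop and a second feature, a low level in NrESC at passage 8. In NrESC, Sp5 had 26.3 and 24.8 TPM at passage 0, 23.3 and 28.0 TPM at passage 2, 4.67 and 4.88 TPM at passage 4 and 3.96 and 4.10 TPM at passage 6. It then had 0.74 and 0.95 TPM at passage 8, 2.80 and 2.96 TPM at passage 10, 1.86 and 2.11 TPM at passage 12 and 3.13 and 2.93 TPM at passage 14. ESC libraries had 22.0 to 27.6 TPM at passages 0 and 2, and 3.34 to 6.30 TPM (median 4.74) at passages 4 to 14. Both NrESC libraries lay above both ESC libraries at passage 0, the arms overlapped at passage 2, and at passages 4 to 14 both NrESC libraries lay below both ESC libraries in TPM. At passage 4 the gap was narrow, with 4.98 TPM in both ESC libraries. In CPM, counts scaled to a common library size, the arms overlapped at passage 4, with 5.32 and 5.69 in NrESC and 5.45 and 5.38 in ESC.

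Sp5 fell in NrESC relative to ESC, with log2 fold changes at passage 6 of -0.50 (SE 0.121, adjusted p = 0.000727), at passage 8 of -2.10 (SE 0.184, adjusted p = 2.02e-13), at passage 10 of -0.99 (SE 0.132, adjusted p = 2.71e-08) and at passage 12 of -1.01 (SE 0.149, adjusted p = 3.56e-07). These 4 calls held without any single library. At passages 0, 2 and 4 the differences were 0.18, -0.06 and 0.03, none of which passed. In the mean of 8 passages the difference was -0.53 (SE 0.198, adjusted p = 0.0393) and -0.34 without passage 8, and it missed the threshold without passage 6, 10, 12 or 14 (adjusted p between 0.0537 and 0.0920) and without the second library of each group (adjusted p = 0.0551).

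Cdx1, a homeobox factor of posterior patterning and later of the gut, was the most abundant of the 10. NrESC libraries had 172 to 193 TPM at passages 0 and 2 and 69.7 to 104 TPM (median 80.3) at passages 4 to 14, and ESC libraries had 155 to 207 TPM and then 63.3 to 89.7 TPM (median 74.6). The change between these spans was -1.15 on the log2 scale in NrESC and -1.32 in ESC, with no overlap between the libraries of the spans in either arm. Relative to ESC, Cdx1 was higher in NrESC at passages 2, 4, 6, 8 and 10, by 0.22 (SE 0.0444), 0.26 (SE 0.0510), 0.32 (SE 0.0509), 0.28 (SE 0.0514) and 0.18 (SE 0.0538), with adjusted p of 0.00379 or less. Its values at passages 12 and 14 were -0.06 and -0.02, and those 2 did not pass. At passage 0 it was lower, at -0.19 (SE 0.0437, adjusted p = 0.000555), with 181 and 172 TPM in NrESC and 207 and 194 TPM in ESC, and this call was lost without ESC library 1 (-0.13, adjusted p = 0.0660). In the mean of 8 passages the difference of 0.12 (SE 0.0571, adjusted p = 0.0931) did not pass, and it did so without passage 0 (0.17, adjusted p = 0.0153) and over passages 4 to 14 alone (0.16, adjusted p = 0.0417), an alternative chosen after seeing the data. It also passed with single libraries as the unit (0.12, adjusted p = 4.05e-08).

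The 2 TCF/LEF factors among the members, which bring beta-catenin to DNA, differed between the arms in opposite directions. Lef1 was at or below 1.43 TPM everywhere. In NrESC, Lef1 had 0.51 and 0.84 TPM at passage 0, 0.46 and 0.68 TPM at passage 2 and 0.02 to 0.26 TPM (median 0.0900) at passages 4 to 14. ESC libraries had 0.99 and 0.78 TPM at passage 0, 1.43 and 1.33 TPM at passage 2 and 0.21 to 0.41 TPM (median 0.260) at passages 4 to 14. In CPM, counts scaled to a common library size with no correction for length, both NrESC libraries lay below both ESC libraries at 8 of 8 passages, whereas in TPM the arms overlapped at passages 0 and 12, at passage 12 with 0.07 and 0.26 TPM in NrESC and 0.35 and 0.25 TPM in ESC. Lef1 fell, with -1.15 in the mean of 8 passages (SE 0.190, adjusted p = 0.000396), and this call held in every alternative run.

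At single passages Lef1 was called lower in NrESC at passages 2, 4, 6 and 14, with log2 fold changes of -1.29 (SE 0.292), -1.26 (SE 0.50), -2.22 (SE 0.647) and -1.78 (SE 0.598). The later values rest on 1 to 16 counts per NrESC library and 9 to 23 per ESC library. Only the call at passage 2 held without any single library, since that at passage 4 was lost without NrESC library 2 (-0.74, adjusted p = 0.340) or ESC library 2 (adjusted p = 0.145), and that at passage 6 without NrESC library 1 (-1.31, adjusted p = 0.150). Without NrESC library 2 the value at passage 6 was -3.86. At passage 14 it was lost without NrESC library 2 (adjusted p = 0.117) or ESC library 1 (adjusted p = 0.157). Whether the difference varied among passages was tested and did not pass (adjusted p = 0.277).

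Tcf7, which encodes TCF1, was abundant and higher in NrESC. NrESC libraries had 43.4 to 45.0 TPM at passages 0 and 2 and 30.6 to 35.7 TPM (median 34.5) later, and ESC libraries had 40.7 to 42.4 TPM and then 25.8 to 32.9 TPM (median 30.3). In CPM both NrESC libraries lay above both ESC libraries at 8 of 8 passages, whereas in TPM the arms overlapped at passage 8, with 30.6 and 31.4 TPM in NrESC and 27.6 and 31.2 TPM in ESC. Tcf7 rose by 0.19 in the mean of 8 passages (SE 0.0407, adjusted p = 0.00241). It was called at 6 passages, with the highest value of 0.35 (SE 0.0469) at passage 10. The calls at passages 4, 6 and 10 held without any single library. That at passage 2 was lost without NrESC library 1 or either ESC library (adjusted p between 0.0558 and 0.102), that at passage 8 without NrESC library 2 (adjusted p = 0.103) or ESC library 1 (0.03, adjusted p = 0.664, against 0.22 without ESC library 2), and that at passage 12 without NrESC library 1 or ESC library 1 (adjusted p = 0.202 and 0.209). In DESeq2 those at passages 2, 8 and 12 did not pass (adjusted p = 0.0606, 0.0914 and 0.0819), nor did that at passage 8 under RLE scaling (adjusted p = 0.0544).

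The other 5 members encode inhibitors that feed back on the pathway. Axin2, a scaffold of the destruction complex and a common readout of beta-catenin, had 32.6 and 34.1 TPM at passage 0, 33.9 and 36.0 TPM at passage 2 and 10.2 to 18.0 TPM (median 16) at passages 4 to 14 in NrESC. In ESC it had 29.9 and 29.7 TPM at passage 0, 35.8 and 37.2 TPM at passage 2 and 15.0 to 20.6 TPM (median 16.6) later. The drop between the spans was -1.21 on the log2 scale in NrESC and -1.02 in ESC, with no overlap between the spans. The lowest NrESC libraries were those of passage 8, at 10.5 and 10.2 TPM, against 15.0 and 16.4 TPM in ESC.

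Axin2 was lower in NrESC at passage 8 (-0.56, SE 0.0583, adjusted p = 3.10e-11) and at passage 10 (-0.28, SE 0.0538, adjusted p = 1.98e-05). It was higher at passage 0 by 0.16 (SE 0.0459, adjusted p = 0.00600), a call lost without NrESC library 2 (0.13, adjusted p = 0.107). In the mean of 8 passages its difference was -0.11 (SE 0.0665, adjusted p = 0.181), which did not pass with passages as the unit and passed with single libraries as the unit (adjusted p = 1.06e-06). The exons of Axin2, Notum and Lef1 overlap antisense genes of GENCODE vM21 by 209, up to 708 and 1208 bases. The strand setting of the counting is not given in the sources used here, so reads of those genes and of the 3 members cannot be told apart.

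Nkd1, which binds Dishevelled and blocks its signal, was higher in NrESC. It had 1.63 to 4.07 TPM (median 2.11) in the 16 NrESC libraries and 1.2 to 2.79 TPM (median 1.69) in the 16 ESC libraries. The highest NrESC values were those of passage 8, at 3.48 and 4.07 TPM, against 1.56 and 1.94 TPM in ESC. Nkd1 rose by 0.43 in the mean of 8 passages (SE 0.105, adjusted p = 0.00452), by 1.14 at passage 8 (SE 0.115, adjusted p = 1.06e-11) and by 0.65 at passage 10 (SE 0.135, adjusted p = 8.00e-05). Calls at passages 0, 6 and 12 were lost when 1 library was left out: at passage 0 without NrESC library 1 or either ESC library (adjusted p between 0.0514 and 0.131), at passage 6 without NrESC library 2 or ESC library 2 (adjusted p = 0.0751 and 0.0674), and at passage 12 without NrESC library 2 (adjusted p = 0.103).

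Rnf43 and Znrf3 encode related membrane ubiquitin ligases that remove Frizzled receptors from the cell surface, and they differed between the arms in opposite directions. Rnf43 had 1.24 to 3.21 TPM (median 1.65) in the NrESC libraries and 0.64 to 2.26 TPM (median 1.22) in the ESC libraries. It rose by 0.49 in the mean of 8 passages (SE 0.106, adjusted p = 0.00222), with called differences of 0.53 (SE 0.136) at passage 2, 0.82 (SE 0.155) at passage 4 and 1.03 (SE 0.174) at passage 8, which held without any single library. At passage 8 it had 1.74 and 1.93 TPM in NrESC and 0.84 and 0.92 TPM in ESC. A call at passage 10 (0.65, SE 0.185) was lost without ESC library 1, the one with 0.64 TPM (0.23, adjusted p = 0.329), or without NrESC library 1 (0.43, adjusted p = 0.133), and the value was 1.16 without ESC library 2.

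Znrf3 had 5.29 to 6.25 TPM (median 5.67) in the NrESC libraries and 5.96 to 7.76 TPM (median 6.52) in the ESC libraries. It was the only member whose 8 passage means did not overlap between the arms in CPM, at 22.4 to 24.8 CPM in NrESC and 26.0 to 29.7 CPM in ESC. This was so, with NrESC below, for 3.4% of all genes tested, and with NrESC above for 4.02% of them and 0 members. Znrf3 fell, with -0.23 in the mean of 8 passages (SE 0.0381, adjusted p = 0.000416) and was called lower at 7 passages, all but passage 0, with values between -0.35 (SE 0.0603) at passage 4 and -0.21 (SE 0.0585) at passage 12. The calls at passages 8 and 14 were lost without NrESC library 2 of the passage (adjusted p = 0.0580 and 0.0538), and that at passage 12 without ESC library 1 (adjusted p = 0.0827). Its spread between the means of passages, an SD of 0.0510 on the log2 scale in NrESC and 0.0721 in ESC, was close to that between the libraries of a group, 0.0563.

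Notum, a secreted esterase that strips the lipid from Wnt ligands, was lower in NrESC at 8 of 8 passages. In NrESC, Notum had 12.3 and 11.2 TPM at passage 0, 8.62 and 9.31 TPM at passage 2, 7.93 and 8.16 TPM at passage 4, 10.5 and 10.9 TPM at passage 6 and 6.36 and 6.56 TPM at passage 8. It then had 10.3 and 10.9 TPM at passage 10, 8.62 and 9.07 TPM at passage 12 and 8.73 and 9.68 TPM at passage 14. ESC libraries had 17.1 and 16.2 TPM at passage 0, 16.6 and 18.2 TPM at passage 2, 17.1 and 16.9 TPM at passage 4, 13.8 and 14.2 TPM at passage 6 and 16.1 and 15.8 TPM at passage 8. They then had 15.3 and 15.2 TPM at passage 10, 13.2 and 12.8 TPM at passage 12 and 10.9 and 11.0 TPM at passage 14.

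Both NrESC libraries of Notum lay below both ESC libraries at every passage, with the widest gap at passage 8 and the narrowest at passage 14. Notum fell, with -0.68 in the mean of 8 passages (SE 0.105, adjusted p = 0.000262), -1.25 at passage 8 (SE 0.0802, adjusted p = 1.29e-17) and -0.23 at passage 14 (SE 0.0823, adjusted p = 0.0226). All 8 passages were called, and the call at passage 14 was lost without NrESC library 1 (-0.15, adjusted p = 0.234), without ESC library 1 (adjusted p = 0.0970) or ESC library 2 (adjusted p = 0.0785), in DESeq2 (adjusted p = 0.0606) and with no filter on low counts (adjusted p = 0.0578). In CPM and among all genes tested, both NrESC libraries lay below both ESC libraries at 8 of 8 passages for 9.4% and above them for 11%, against 3 members below (Lef1, Znrf3 and Notum) and 1 above (Tcf7). In TPM this held for Znrf3 and Notum, with the overlaps given above for Lef1 and Tcf7.

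**Figure D2:**
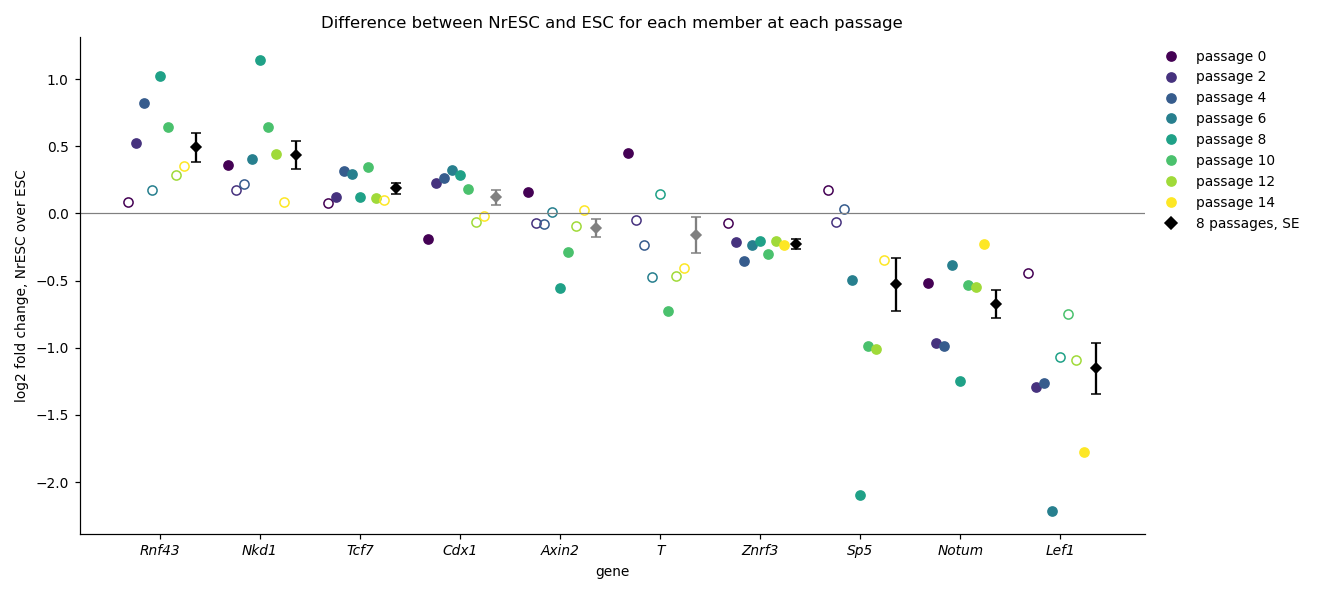
Log2 fold change of NrESC over ESC for each gene, with 1 dot per passage (filled where the adjusted p was under 0.05, open where not) and a diamond with SE for the fit over 8 passages (black where called, grey where not). Rnf43, Nkd1 and Tcf7 are above 0 and Znrf3, Notum and Lef1 below 0 at all 8 passages, and the passage 8 dots of Sp5, Notum, Nkd1 and Rnf43 are each the most distant of their gene.

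Set side by side, 3 of the 10 genes were called higher in NrESC in the mean of 8 passages (Tcf7, Nkd1 and Rnf43), where 28.3% of all genes tested were, and 4 lower (Sp5, Lef1, Znrf3 and Notum), where 27.2% were. These shares are near the background. The median of the 10 log2 fold changes was -0.135, against -0.000766 over all genes. Of these 7 calls, 6 held in every alternative run, and the exception was Sp5. With single libraries as the unit Cdx1 joined the higher genes and T and Axin2 the lower ones, which gave 4 and 6, and the calls over all genes grew as well. Lef1 changed most among the members and held rank 550 in absolute size among the 15036 genes.

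At single passages the members' counts also stayed near the background, which grew with the number of genes called at that passage. At passage 0, 3 members were higher and 2 lower (all genes 17.6% and 14.8%), at passage 2, 3 and 3 (24.7% and 23.8%), at passage 4, 3 and 3 (27.4% and 26.9%) and at passage 6, 3 and 4 (23.6% and 25.1%). At passage 8, 4 were higher and 4 lower (35.2% and 34.6%), at passage 10, 4 and 5 (27% and 28.5%), at passage 12, 2 and 3 (23.1% and 24%) and at passage 14, 0 and 3 (19.7% and 21.3%). At passage 14, 1 member was higher at an unadjusted p under 0.05 in edgeR and 0 were called by DESeq2. The count of lower members was 1 at passage 0 without ESC library 1 and 1 at passage 14 without NrESC library 2, and that of higher members at passage 12 was 1 without NrESC library 1, NrESC library 2 or ESC library 1. Of 49 calls of a member at a passage, 32 held without any single library of that passage.

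The difference between the arms varied among passages for 8 of the 10 genes, all but Lef1 and Znrf3 (adjusted p = 0.277 and 0.117), where 69.4% of all genes did. Within NrESC, 9 of 10 varied among passages, all but Znrf3 (adjusted p = 0.232), where 85.2% of all genes did, and within ESC all 10 did, where 80.9% did.

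The drop between passages 2 and 4 was the pattern in which the members stood farthest from other genes. Since the split into passages 0 and 2 and passages 4 to 14 was made after the values were seen, it is described with no test. The log2 change of the mean CPM of passages 4 to 14 over that of passages 0 and 2 was under -1 for 5 members in NrESC, where it was for 0.878% of all genes tested, and for 5 in ESC, where it was for 0.499%. The members were T, Sp5, Lef1, Axin2 and Cdx1 in both arms. Across all genes, 36 changed by this much in both arms, 0.239%, and these 5 were among them. With the 15036 genes ranked from the lowest log2 change up, T held rank 1 in NrESC and 2 in ESC, Sp5 rank 4 in both, Lef1 rank 11 in NrESC and 7 in ESC, Cdx1 rank 91 in NrESC and 27 in ESC, and Axin2 rank 79 in NrESC and 68 in ESC.

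The other 5 members changed less. Rnf43 had log2 changes of -0.69 in NrESC and -0.92 in ESC, Nkd1 of -0.497 in NrESC and -0.76 in ESC, Tcf7 of -0.43 in NrESC and -0.55 in ESC, and Notum of -0.25 in NrESC and -0.32 in ESC. Znrf3 had -0.06 in NrESC and 0.05 in ESC. A log2 change under -0.5 was thus seen in 6 members in NrESC, where 3.13% of all genes had one, and in 8 in ESC, where 2.99% did. The median of the 10 was -0.92 in NrESC and -0.97 in ESC, against 0.00302 in NrESC and 0.0103 in ESC over all genes tested. All 4 libraries of passages 0 and 2 were above all 12 of passages 4 to 14 in CPM for 6 members in NrESC, where this held for 4.39% of all genes, and for 9 in ESC, where it held for 6.83%. In both arms it held for 6 members, the 5 above and Tcf7, and for 2.09% of all genes.

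**Figure D3:**
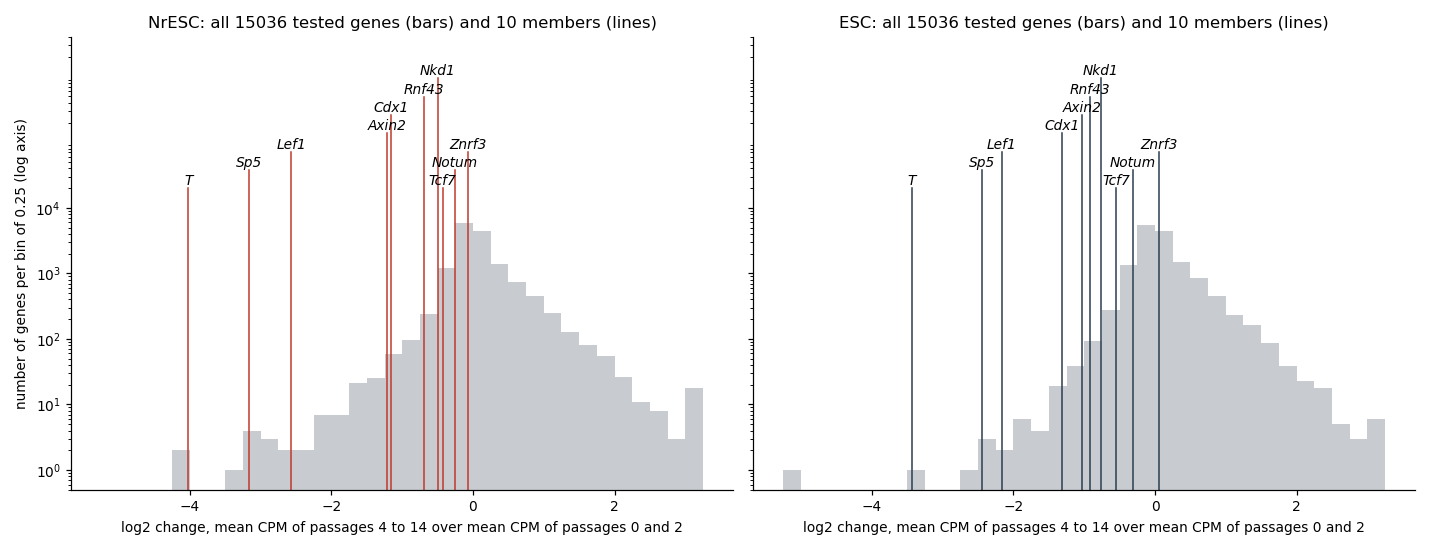
Log2 change of the mean CPM of passages 4 to 14 over that of passages 0 and 2, for all 15036 genes tested (grey bars, number of genes per bin of 0.25 on a log axis, the last bin holding all higher values) and for the 10 members (vertical lines, whose heights carry no value), NrESC on the left and ESC on the right. T, Sp5 and Lef1 lie in the sparse left tail in both arms, and Znrf3 lies in the centre.

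The genes with the largest drops in both arms besides the members were chosen after their values were seen. They were Egr1, an immediate early gene of growth factor signalling (log2 changes of -2.86 in NrESC and -5.01 in ESC), Htr5a, a serotonin receptor (-2.51 in NrESC and -2.72 in ESC), Pudp (-2.87 in NrESC and -1.93 in ESC) and Fgfbp1 (-2.02 in NrESC and -1.75 in ESC). Of the other pathway genes tested, only the ligand Wnt5b lay under -1 in both arms, with -1.33 in NrESC and -1.16 in ESC. None of the 18 genes of receptors, the 18 of the destruction complex or the 17 of nuclear partners did so in either arm. Of the 32 other reported targets of beta-catenin tested, 3 lay under -1 in NrESC (all genes 0.878%), 0 in ESC (0.499%) and 0 in both arms (0.239%). The 3 were Cdx2 (-1.71), Wnt8a (-1.67) and Evx1 (-1.33), which averaged 0.654, 0.119 and 0.0269 TPM in NrESC. The median log2 change of the 32 was -0.0851 in NrESC and 0.0373 in ESC, so the list in its median did not show the drop of the 5 members. Markers of primitive streak and early mesoderm, without T, went both ways. Their summed level was 21.5 TPM at passages 4 to 14 and 21.1 TPM at passages 0 and 2 in NrESC, and 26.6 and 26.3 TPM in ESC, with 9 of the 12 under 1 TPM in each arm. Eomes made up the largest part of that sum, with means of 11.7 TPM in NrESC and 15.5 TPM in ESC. The median log2 change of the 9 tested was 0.541 in NrESC and 0.171 in ESC. Wnt3, Mixl1, Fgf8, Mesp2, Gsc and Hand1 rose in both arms, with Gsc at 0.60 in NrESC and 0.68 in ESC. Eomes (-0.352 in NrESC and -0.405 in ESC), Evx1 (-1.33 in NrESC and -0.15 in ESC) and Tbx6 (-0.16 in NrESC and -0.372 in ESC) fell.

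A straight line over passage number was also fitted to each gene in each arm. In NrESC, 5 members had a slope called lower, where 1.66% of all genes tested did, and 0 had one called higher (0.745%). The slopes were -0.36 log2 units per passage for T (SE 0.0643, adjusted p = 0.00922), -0.27 for Sp5 (SE 0.0552, adjusted p = 0.0195), -0.22 for Lef1 (SE 0.0539, adjusted p = 0.0406), -0.11 for Cdx1 (SE 0.0203, adjusted p = 0.0119) and -0.09 for Axin2 (SE 0.0236, adjusted p = 0.0439). In ESC, 2 members were called lower, where 0.259% of all genes were, T at -0.31 (SE 0.0650, adjusted p = 0.0463) and Cdx1 at -0.11 (SE 0.0195, adjusted p = 0.0274), and 0 higher (0.219%). The slopes did not differ between the arms for any member (0 called, against 0% of all genes higher and 0.0133% lower; the smallest unadjusted p of a member was 0.23).

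Over passages 4 to 14 alone, an alternative chosen after seeing the data, the slopes were smaller and 0 members were called in either arm, with T at -0.08 in NrESC (adjusted p = 1.00) and -0.06 in ESC (adjusted p = 1.00). With any 1 passage left out, the slope of T in NrESC ran from -0.42 to -0.32 and that of Sp5 from -0.36 to -0.23, while the number of calls moved more. In NrESC the count of lower members was 0 without passage 0, 1 without passage 2, 2 without passage 10, 0 without passage 12 and 3 without passage 14. In ESC it was 0 without passage 0, 2, 10 or 12, 1 without passage 6 or 14 and 5 without passage 8. It was also 1 in ESC without the first library of each group.

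Likeness between the members was described by Pearson's correlation of log2 CPM over the 16 group means, which share the early drop, the passages and the scaling. Of 45 pairs 38 were positive, with a median of 0.604. The highest values were r = 0.980 between Sp5 and Axin2 and 0.961 between T and Axin2, and T and Sp5 had r = 0.933. Over the 12 groups of passages 4 to 14, 23 of 45 pairs were positive, with a median of 0.137 and a range of -0.864 to 0.922. In those groups Sp5 and Axin2 still had r = 0.922, and Sp5 and Nkd1 had r = -0.864. Of the 12 groups, NrESC passage 8 had the lowest Sp5 (0.959 CPM) and Axin2 (25.4 CPM) and the highest Nkd1 (9.38 CPM). These values of r may lean on that group, and r without it was not computed. Notum and Znrf3, which were both lower in NrESC, had r = 0.821 over all 16 groups.

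**Figure D4:**
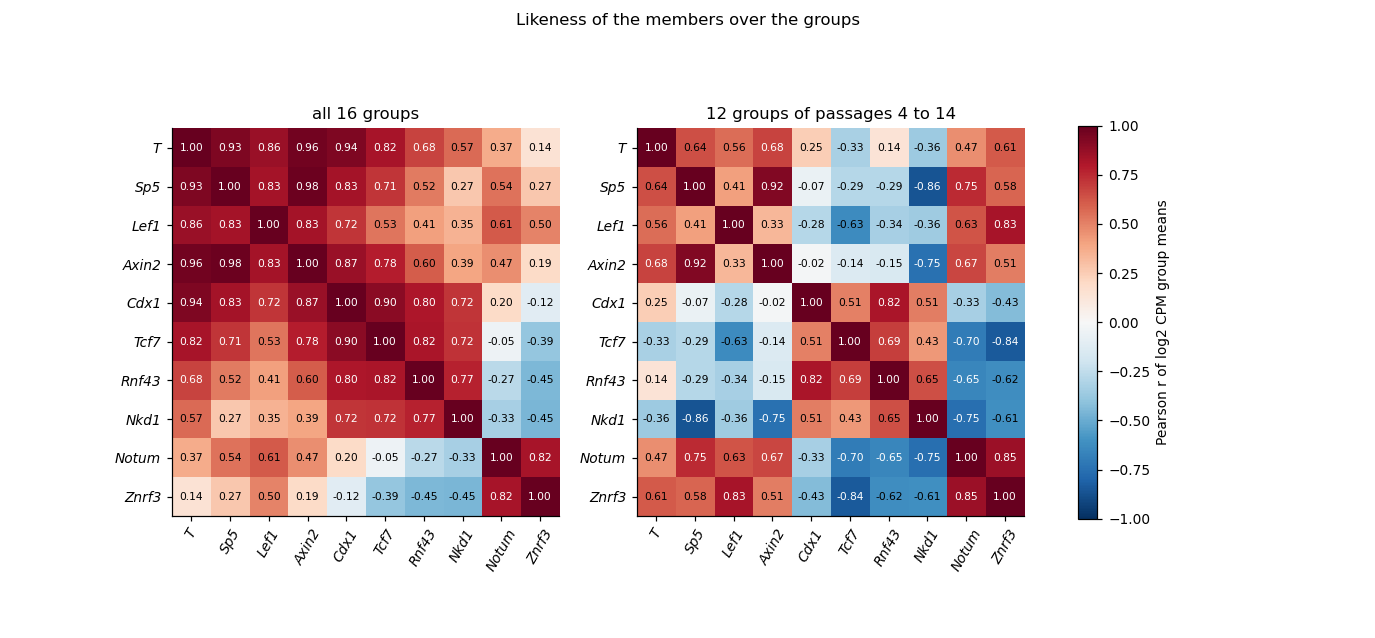
Pearson's r of log2 CPM group means between each pair of members, over all 16 groups (left) and over the 12 groups of passages 4 to 14 (right), on a scale from -1 (blue) to 1 (red). The block of positive values among T, Sp5, Lef1, Axin2, Cdx1 and Tcf7 on the left remains on the right only in part. There T, Sp5, Lef1 and Axin2 stay positive with each other (0.33 to 0.92), while Tcf7 is negative with each of them and Cdx1 with Sp5, Lef1 and Axin2. Nkd1, Rnf43 and Tcf7 are negatively correlated with Notum and Znrf3 in both panels, with values farther from 0 on the right.

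Genes averaging 1 or more in log2 CPM were compared, with placeholder symbols such as Gm numbers and Rik names passed over. Among these 11139 genes, the profiles most like those of the members over the 16 groups included other members. Axin2 was nearest to T (r = 0.961), followed by Bdh1, a ketone body enzyme (0.960), and the homeobox gene Gbx2 (0.954). Gbx2 and Axin2 were nearest to Sp5 (both 0.980), followed by Grsf1 (0.959), and Sp5, Gbx2 (0.972) and Bdh1 (0.946) to Axin2. Lhpp, Htr5a and Traf7 were nearest to Cdx1 (0.946 to 0.959), Fam19a4, Gpat4 and Ubl7 to Lef1 (0.885 to 0.888), and Tamm41, Carm1 and Hook2 to Tcf7 (0.936 to 0.938). For the inhibitors, Bin2, Mturn and Lsr were nearest to Nkd1 (0.936 to 0.957), Nnat, Lad1 and Vwa5a to Rnf43 (0.928 to 0.939), Nelfa, Dock1 and Atf2 to Znrf3 (0.929 to 0.932) and Cpsf4l, Sumf1 and Arl4a to Notum (0.943 to 0.948). Bdh1, Med25 and Gbx2 were nearest to the mean of the 10 standardised profiles (0.936 to 0.947).

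The other genes of the pathway were taken from lists by role, read against the same background of 28.3% of all genes higher and 27.2% lower. Ctnnb1, which encodes beta-catenin itself, was lower in NrESC, with 347 ± 32.8 TPM against 402 ± 26.2 TPM in ESC (SD, n = 8 passage means in each arm), or -0.20 on the log2 scale (SE 0.0451, adjusted p = 0.00319). Of the 18 genes of beta-catenin and the destruction complex, 6 were higher and 2 lower (median 0.05). Casein kinases Csnk1e (0.22, SE 0.0420) and Csnk1a1 (0.19, SE 0.0360) and Dishevelled Dvl1 (0.22, SE 0.0453) were higher. The targets of CHIR99021, Gsk3a (0.07, SE 0.0268, adjusted p = 0.0560) and Gsk3b (-0.06, SE 0.0369, adjusted p = 0.219), did not pass. With single libraries as the unit both passed (adjusted p = 1.82e-06 and 7.79e-05), and Gsk3a also with library totals as the scaling (adjusted p = 0.0298).

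Of the 17 nuclear partners of beta-catenin, 8 were higher and 5 lower (median 0.17). Tcf7l1 (TCF3), the TCF factor best known as a repressor in mouse embryonic stem cells, was lower in NrESC, with 46.6 ± 11.6 TPM against 73.4 ± 17.6 TPM in ESC, or -0.64 on the log2 scale (SE 0.0446, adjusted p = 2.37e-06), at 8 of 8 passages. Its level was lowest at passage 0 in both arms, with passage means of 29.1 and 32.1 TPM at passages 0 and 2 and 43.4 to 60.7 TPM later in NrESC, and 42.1 and 51.5 TPM and then 69.5 to 89.5 TPM in ESC. The log2 change of passages 4 to 14 over passages 0 and 2 was 0.72 in NrESC and 0.75 in ESC, opposite in sign to that of Lef1 and Tcf7, and its slope did not pass in either arm (adjusted p = 0.0511 in NrESC and 0.0721 in ESC). Tcf7l2 was lower (-0.21, SE 0.0679, adjusted p = 0.0197), a call lost without the second library of each group (-0.17, adjusted p = 0.0839) and without passage 2 or 10 (adjusted p = 0.0577 and 0.0519), and the coactivator Bcl9 (0.34, SE 0.0553) and Aes, a short Groucho-family protein (0.32, SE 0.0567), were higher.

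Of 18 receptors and R-spondin genes, 4 were higher and 4 lower (median -0.06). The coreceptor Lrp5 was higher, with 32.7 ± 3.22 TPM in NrESC and 27.4 ± 2.70 TPM in ESC (0.27, SE 0.0338, adjusted p = 6.33e-05), and Ror2 (0.19, SE 0.0337) as well, while Rspo1 was lower (-0.50, SE 0.103). Lrp6 did not pass (0.01, SE 0.0368, adjusted p = 0.906), and its sign turned under other scalings. Of 11 extracellular inhibitors, 3 were higher and 4 lower (median -0.18). Among them Kremen2 (1.5, SE 0.172) and Sfrp1 (0.61, SE 0.0546; 53.1 ± 9.57 TPM in NrESC and 34.8 ± 3.77 TPM in ESC) were higher and Dkk1 was lower (-1.83, SE 0.235; 0.234 ± 0.128 TPM in NrESC and 0.834 ± 0.289 TPM in ESC).

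Of 16 Wnt ligands and secretion genes, 2 were higher and 3 lower (median -0.16), with Wnt11 at 0.63 (SE 0.0984), Wnt7a at -1.06 (SE 0.233) and Wnt2b at -1.33 (SE 0.350), a call lost without the second library of each group (-0.95, adjusted p = 0.0736). Wnt7a averaged 0.0869 TPM in NrESC and 0.184 TPM in ESC, and Wnt2b 0.0581 TPM in NrESC and 0.137 TPM in ESC. Of 32 other reported targets of beta-catenin, 7 were higher and 13 lower (median -0.16). Evx1 (-3.37, SE 0.333), a streak gene at 0.0269 TPM in NrESC and 0.285 TPM in ESC, Cdx2 (-1.34, SE 0.171) and Tnfrsf19 (-0.97, SE 0.121) were lower, and Fam84b was higher (0.99, SE 0.0918). None of these shares was tested against the background, and several genes stand in more than 1 list.

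**Figure D5:**
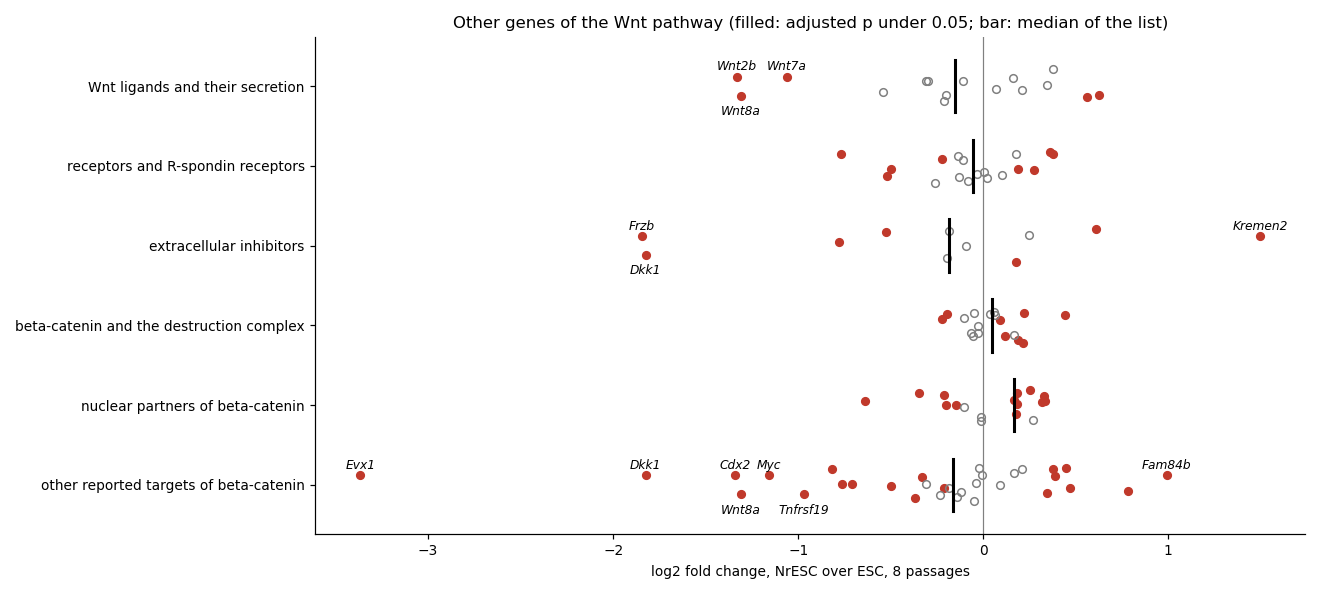
Log2 fold change of NrESC over ESC over 8 passages for the other Wnt pathway genes, 1 row per list with 1 point per gene, filled red where the adjusted p was under 0.05 and open grey where not, and a black bar at the median of the list. The bars lie between -0.18 and 0.17, and the widest spread is in the extracellular inhibitors and the other reported targets, where genes beyond 0.9 in either direction are named.

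Markers of other cell types that such cultures can hold moved in both directions. Of 9 tested markers of primitive streak and early mesoderm, 1 was higher (Tbx6, 0.78, SE 0.167) and 3 lower, among them Mixl1 (-0.71, SE 0.132), and their summed level ran from 18.5 to 24.4 TPM over the NrESC passages and from 24.0 to 30.4 TPM over the ESC passages. The 8 fibroblast markers summed to 6.54 to 16.3 TPM in NrESC and 6.50 to 14.1 TPM in ESC, with Lum at 0 in every library. The 5 primitive endoderm markers summed to 5.60 to 10.9 TPM in NrESC and 5.30 to 8.67 TPM in ESC, the 5 definitive endoderm markers to 11.2 to 14.7 TPM in NrESC and 12.0 to 14.9 TPM in ESC with Cer1 at 0 in every library, and the 5 neuroectoderm markers to 60.8 to 103 TPM in NrESC and 74.4 to 136 TPM in ESC. The 6 trophectoderm markers summed to 102 to 151 TPM in NrESC and 69.0 to 99.9 TPM in ESC. Krt8 made up the largest part of that sum, with means of 73.4 TPM in NrESC and 37.8 TPM in ESC. Of the 5 tested, 2 were higher, among them Krt8 (0.97, SE 0.123), and 2 lower, Cdx2 (-1.34, SE 0.171) and Gata3 (-1.82, SE 0.212). Of 4 tested neuroectoderm markers, 1 was higher (Sox1, 0.52, SE 0.0863) and 3 lower, among them Pax6 (-1.995, SE 0.211) and Nes (-0.64, SE 0.0670). In primitive endoderm Gata4 was higher (0.34, SE 0.0867) and Dab2 lower (-0.66, SE 0.172). Among fibroblast markers Col1a1 was higher (0.42, SE 0.110) and Twist1 lower (-0.48, SE 0.107). The part of all these markers in the differences of the 10 genes was not tested.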

How the data were processed

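Per the file headers, the authors deposited RSEM expected counts for each gene symbol, with no normalization, beside a table of TPM, RSEM's values corrected for transcript length. The submitters' processing notes name build mm9 and the tools RSEM, STAR, HTSeq 0.12.4, Cufflinks 2.2.1, edgeR and DESeq2. The role of each tool is not given in the sources used here, and neither are the annotation and the strand setting. RSEM divides reads that match several genes, so levels of near copies depend on that division.

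Counts, of which 0.837% were fractional, were rounded and scaled by TMM (factors 0.979 to 1.03). edgeR 4.0.16 (R 4.3.3) and its filterByExpr kept 15036 genes. The mean difference was fitted to sums per arm and passage with passage as a block (7 residual degrees of freedom), slopes to the same sums (12), and single passages and variation among passages to single libraries (16). Library totals set the precision. The model code was tested on simulated counts. CPM are counts scaled to a common library size after TMM, with a prior count of 1 for log2 values.

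Numbers of the libraries (1 or 2) did not pair them across arms: the deviations of same-numbered libraries correlated between -0.0187 and 0.0589 at each passage. The 2 libraries of a group differed by more than sampling noise (chi-square per degree of freedom 1.71 to 3.31).

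The 10 genes and the lists of pathway and marker genes were chosen with earlier results of these data known, so counts over them are descriptions. Beyond the 10, each list names up to 3 called members with the smallest p, plus Ctnnb1, Gsk3a, Gsk3b, Tcf7l1, Tcf7l2, Lrp5, Lrp6, Abca1 and Abcg1, and for each of the 10 the 3 genes of most similar profile. Alternatives were other scalings (RLE, library totals), no filter, DESeq2 1.42.0, limma 3.58.1 on log2(TPM + 1) and log2(TPM + 0.1), single libraries as the unit, a replicate block, and leaving out libraries or passages. Promoter windows came from RefSeq and antisense genes from GENCODE, both of another build than the counts.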

Additional observations from a re-analysis of the deposited data

Results flagged for a closer look

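The difference between NrESC and ESC varied among the 8 passages for 8 of the 10 genes, in a test of the 7 arm-by-passage terms with edgeR's quasi-likelihood model, and 69.4% of all genes tested did so too. The adjusted p-values were 1.587e-12 for Sp5, 4.274e-10 for Notum, 3.967e-09 for Axin2, 6.913e-09 for Cdx1, 1.766e-05 for Nkd1, 0.0002552 for Tcf7, 0.004854 for Rnf43 and 0.008141 for T. Sp5 ranged from a log2 fold change of -2.10 at passage 8 to 0.18 at passage 0, Notum from -1.25 at passage 8 to -0.23 at passage 14, Axin2 from -0.56 at passage 8 to 0.16 at passage 0 and Cdx1 from -0.19 at passage 0 to 0.32 at passage 6. Nkd1 ranged from 0.08 at passage 14 to 1.14 at passage 8, Tcf7 from 0.08 at passage 0 to 0.35 at passage 10, Rnf43 from 0.09 at passage 0 to 1.03 at passage 8 and T from -0.72 at passage 10 to 0.45 at passage 0. Without passage 8, at which both NrESC libraries stood apart, the variation did not pass for Nkd1 (adjusted p = 0.09082) and Rnf43 (adjusted p = 0.05732), and it passed for the other 6. The part of passage 8 in these results beyond that was not tested.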

How the results depend on the processing

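The counts of members and of genes called in the mean difference moved by at most 1.5 times under every alternative run, the lower members most, with 6 against 4 where single libraries were the unit. The SE is then from the spread between libraries and not between passages. At single passages DESeq2 gave 1 member higher at passage 12, against 2, and lost 6 calls of members. The slope counts depended on the settings. With single libraries as the unit, in place of passages, the slopes called were 4296 genes higher, 4709 lower and 9 members lower in NrESC, and 4099 genes higher, 4238 lower and 9 members lower in ESC. The difference of slopes was then called for 1691 genes higher and 2130 lower, with 1 member higher and 2 lower. Single libraries with a replicate block gave 4287 and 4689 genes and 9 members in NrESC, 4064 and 4212 genes and 9 members in ESC, and 1658 and 2092 genes with 1 and 2 members for the difference. Beside that, the replicate block changed 2 calls of members at single passages, T at passage 10 (-0.73, adjusted p = 0.0527) and Sp5 at passage 14 (-0.35, adjusted p = 0.0443). Library numbers pair nothing here, so the block cannot show how firm a call is. The call of T at passage 10 was also lost in DESeq2 and without some single libraries, as given above. Over 120 pairs of groups, same-numbered deviations correlated between -0.0936 and 0.0950.

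Over passages 4 to 14 alone, slopes were called for 0 genes higher, 5 lower and 0 members in NrESC, for 0 genes and 0 members in ESC, and for 1 gene lower in their difference. Leaving out a passage or the libraries of one number gave 5 to 410 genes higher, 32 to 614 lower and 0 to 6 members lower in the NrESC slope, 1 to 223 genes higher, 3 to 243 lower and 0 to 5 members lower in the ESC slope, and 0 to 4 genes lower in their difference. Leaving out libraries gave 1 to 2 members lower at passage 0, 1 to 2 higher at passage 12 and 1 to 2 lower at passage 14.

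Signs turned only for values that did not pass. Lrp6 had -0.000825 under RLE scaling, -0.000806 in DESeq2, -0.0105 and -0.0107 in limma on TPM with pseudocounts of 1 and 0.1, and -0.0145 to 0.0298 with passages or libraries left out. With libraries or passages left out, the mean difference of T ran from -0.30 to 0.0384. With single libraries left out, T ran from -0.116 to 0.0224 at passage 2, from -0.472 to 0.0366 at passage 4 and from -0.261 to 0.448 at passage 8. Sp5 ran from -0.194 to 0.0775 at passage 2 and from -0.0243 to 0.0712 at passage 4, Axin2 from -0.0419 to 0.0455 at passage 6 and from -0.00456 to 0.0661 at passage 14, and Cdx1 from -0.0676 to 0.0284 at passage 14. Rnf43 ran from -0.0254 to 0.181 at passage 0 and from -0.0760 to 0.372 at passage 6, and Nkd1 from -0.0363 to 0.194 at passage 14. The cause of these changes was not tested beyond the settings' own construction. Depth limits Lef1 and later T most, with 1 to 40 counts in a library at passages 4 to 14.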
